A study of Mus musculus with 16 samples.

Results

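The SLC25 genes encode the carrier proteins of the mitochondrial inner membrane and a few close relatives that sit in other membranes. They were followed in mouse kidneys with and without acute injury, and with and without Vhl in the tubule. A member was a gene whose symbol starts with Slc25a and a number and that had a row with exactly 1 symbol in the deposited array table. Of several such rows for a gene, the brightest on average was used. The 50 rows gave 46 members, out of 19938 genes tested. Of the 46, 36 had a mean log2 level of at least 6, and the other 10 (Slc25a2, Slc25a14, Slc25a18, Slc25a27, Slc25a29, Slc25a31, Slc25a41, Slc25a47, Slc25a53 and Slc25a54) lay below it on average.

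The 16 arrays are labelled as biological replicates, so p-values measure the spread between those samples. Every mouse belonged to a line in which doxycycline, through a Pax8-driven rtTA, deletes Vhl in tubule cells, although the genotype label of mice without the drug reads wild type. VHL-KO/AKI mice (n = 5) received doxycycline under the skin, 0.1 mg for every 10 g, 4 days before they were killed, and rhabdomyolysis. Rhabdomyolysis came from 50% glycerol at 0.05 ml for every 10 g put into the muscle of the left hind limb, without water from 20 h before the glycerol until 24 h after it. AKI mice (n = 5) had the same glycerol and water withdrawal without doxycycline. VHL-KO mice (n = 3) had the same doxycycline at the same time without glycerol, and control mice (n = 3) had no treatment. Both sexes were used, at 24 to 31 g. No group received doxycycline without the deletion, or lost water without glycerol, so these cannot be told apart. RNA came from kidneys cut crosswise, with all their cell types.

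SLC25 carriers move substrates across the inner mitochondrial membrane, which most solutes cannot cross alone. Each carrier exchanges or cotransports a small set of molecules: ADP for ATP, phosphate, malate and other carboxylic acids, amino acids, acylcarnitines, cofactors or iron. Proximal tubule cells are rich in mitochondria and burn fatty acids for the ATP that salt and solute reabsorption needs. Loss of Vhl stabilises the hypoxia-inducible factors (HIF), transcription factors that shift cells from mitochondrial respiration toward glycolysis.

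Some arrays and groups stood apart in ways that touch the results. Vhl fell by 0.67 on the log2 scale in VHL-KO/AKI against AKI kidneys (SE 0.0674, adjusted p 9.98e-05). In VHL-KO against control kidneys its difference was -0.40 (SE 0.087, adjusted p 0.0565), with no overlap between arrays. Of all genes, 5.33% lay lower there without overlap. Xist lay at 4.30 to 4.49 in VHL-KO/AKI and 4.16 to 5.08 in AKI kidneys, against 11.32 to 11.47 in VHL-KO and 10.23 to 11.19 in control kidneys. The mean of 3 Y-linked genes was 7.77 to 8.23 in VHL-KO/AKI, 7.83 to 8.26 in AKI and 4.81 to 4.88 in VHL-KO kidneys, and in control kidneys 4.96 and 5.01, with 7.43 in replicate 3. Control replicate 3 showed both signals, with Xist at 10.23, and so is no clean male control. Its mean over 8 male-biased kidney genes was 11.61, against 7.98 and 8.25 in the other controls and 10.66 to 11.73 in AKI kidneys. Its mean over 5 female-biased genes was 10.55, against 11.24 and 11.20 in the other controls and 7.24 to 8.53 in AKI kidneys. Sex and injury cannot be told apart here, and control replicate 3 does not separate them. AKI replicate 4 had a mean correlation of 0.973 with the other AKI arrays, whose own means were 0.988 to 0.989. Array medians lay between 5.92 and 6.03. Among the members, Slc25a5, Slc25a14, Slc25a43 and Slc25a53 are X-linked.

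After injury, carriers of dicarboxylates, ADP and ATP, aspartate, coenzyme A and NAD+ were among those that fell, and the rises were fewer. In AKI against control kidneys, 13 members fell and 6 rose at a Benjamini-Hochberg adjusted p under 0.05 in limma, which is 41.3% of the members. The same comparison called 28.1% of all genes, with 13.2% higher and 14.9% lower. Among the 10462 genes with a mean of at least 6, 24.3% were lower and 20.2% higher. Of the 36 brighter members, which hold all 19 calls, 13 were lower and 6 higher. The strongest rise was that of Slc25a24, a calcium-regulated ATP-Mg/phosphate carrier, by 2.59 (SE 0.344). Its close relative Slc25a23 had the strongest fall, by 1.63 (SE 0.265). The median difference over the 46 members was -0.087, beside 0.021 over all genes. Arrays of the 2 groups did not overlap for 7 members upward and 12 downward (15.2% and 26.1%), beside 13.5% and 13.8% of all genes. In whole kidney tissue, fewer cells of a type and less RNA per cell cannot be told apart.

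In VHL-KO/AKI against VHL-KO kidneys 6 members were called, 13% of the 46, where 13.6% of all genes were called, 4.66% higher and 8.91% lower. Slc25a24 and Slc25a45 rose, and Slc25a23, Slc25a28, Slc25a35 and Slc25a36 fell. The members' median difference was -0.12 here. Arrays of the 2 groups did not overlap for 4 members upward and 8 downward (8.7% and 17.4%), beside 9.42% and 14.9% of all genes. Leaving out 1 array moved the count of called members between 1 and 11. It was 1 without VHL-KO replicate 2 (9.27% of all genes called) and 1 without VHL-KO/AKI replicate 4 (10%). It was 11 without AKI replicate 4, which is in neither group but enters the shared estimate of the spread. Counts of 2 or 3 came from leaving out any of control replicates 1 to 3, VHL-KO replicate 1, AKI replicates 1 and 5, or VHL-KO/AKI replicates 2 and 5. Those fits called 8.8% to 13.3% of all genes. The 11 without AKI replicate 4 stood beside 19.6% of all genes, the 3 without VHL-KO/AKI replicate 5 beside 11.1%, and the 3 without control replicate 3 beside 12.7%. The AKI against control count stayed between 15 and 26. The 15, without control replicate 1, stood beside 21.3% of all genes, and the 26, without AKI replicate 4, beside 34.2%. With a sex-linked level as a covariate, limma called 0% of all genes and 0 members in either injury comparison, and 0 members reached an unadjusted p under 0.05. The covariate nearly separates injured from uninjured arrays, and standard errors of the 19 members called in AKI against control kidneys were 4.33 to 4.43 times as large with it. None of those 19 differences turned its direction, and their sizes moved unequally. With the covariate, Slc25a24 stood at 3.11 (SE 1.52), Slc25a11 at -0.97 (SE 0.94), Slc25a15 at -0.75 (SE 0.499) and Slc25a37 at 1.16 (SE 1.02), while Slc25a4 stood at -0.13 (SE 0.813) and Slc25a10 at -0.28 (SE 1.27). Without control replicate 3, 17 members were called in AKI against control kidneys, beside 22.7% of all genes.

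Tubule markers moved with these differences, and their part in them was not tested. The mean level of 10 proximal tubule markers, such as Lrp2 and Slc34a1, was 10.89 to 11.60 in VHL-KO/AKI and 10.62 to 11.99 in AKI kidneys, against 11.89 to 12.06 in VHL-KO and 12.31 to 12.40 in control kidneys. In AKI against control kidneys 8 of the 10 were called lower, and in VHL-KO/AKI against VHL-KO kidneys 5 lower and 1 higher. Kap, which is also among the male-biased kidney genes, went up instead, by 0.39 and 0.76 in these comparisons. The 5 thick ascending limb markers averaged 9.78 to 11.16 in VHL-KO/AKI, 9.26 to 11.17 in AKI, 11.57 to 11.71 in VHL-KO and 11.58 to 11.81 in control kidneys. The 6 injury markers measured, which include Havcr1 and Lcn2, averaged 9.77 to 10.89 in VHL-KO/AKI and 9.48 to 11.11 in AKI kidneys. Averages were 7.23 to 7.30 in VHL-KO and 7.07 to 7.23 in control kidneys. In each injury comparison 5 of the 6 were called higher, and 1 difference was below 0. That difference was -0.10 in AKI against control and -0.017 in VHL-KO/AKI against VHL-KO kidneys. AKI replicate 4 held the highest tubule values of its group, 11.99 for the proximal tubule and 11.17 for the thick ascending limb, and the lowest injury value, 9.48. It also lay above every other AKI array in 12 of the 13 members that fell, by a median of 0.84 over the mean of the others. The same held for 14 of the 27 members not called and for 0 of the 6 that rose. The share over all genes was not counted. The 7 neutrophil markers averaged 4.68 to 5.38 in VHL-KO/AKI and 5.16 to 6.02 in AKI kidneys, against 4.54 to 4.65 in VHL-KO and 4.55 to 4.63 in control kidneys. The 6 adipose markers averaged 6.61 to 7.87 in VHL-KO/AKI, 6.91 to 8.35 in AKI, 6.07 to 6.78 in VHL-KO and 5.88 to 6.33 in control kidneys. The 7 skeletal muscle markers averaged 4.95 to 5.00 in VHL-KO/AKI, 5.02 to 5.12 in AKI, 4.85 to 4.91 in VHL-KO and 4.87 to 4.92 in control kidneys, so that injured arrays lay above uninjured ones, all near the low end of the table. In AKI against control kidneys all 7 differences were above 0, and 1 was called.

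**Figure D1:**
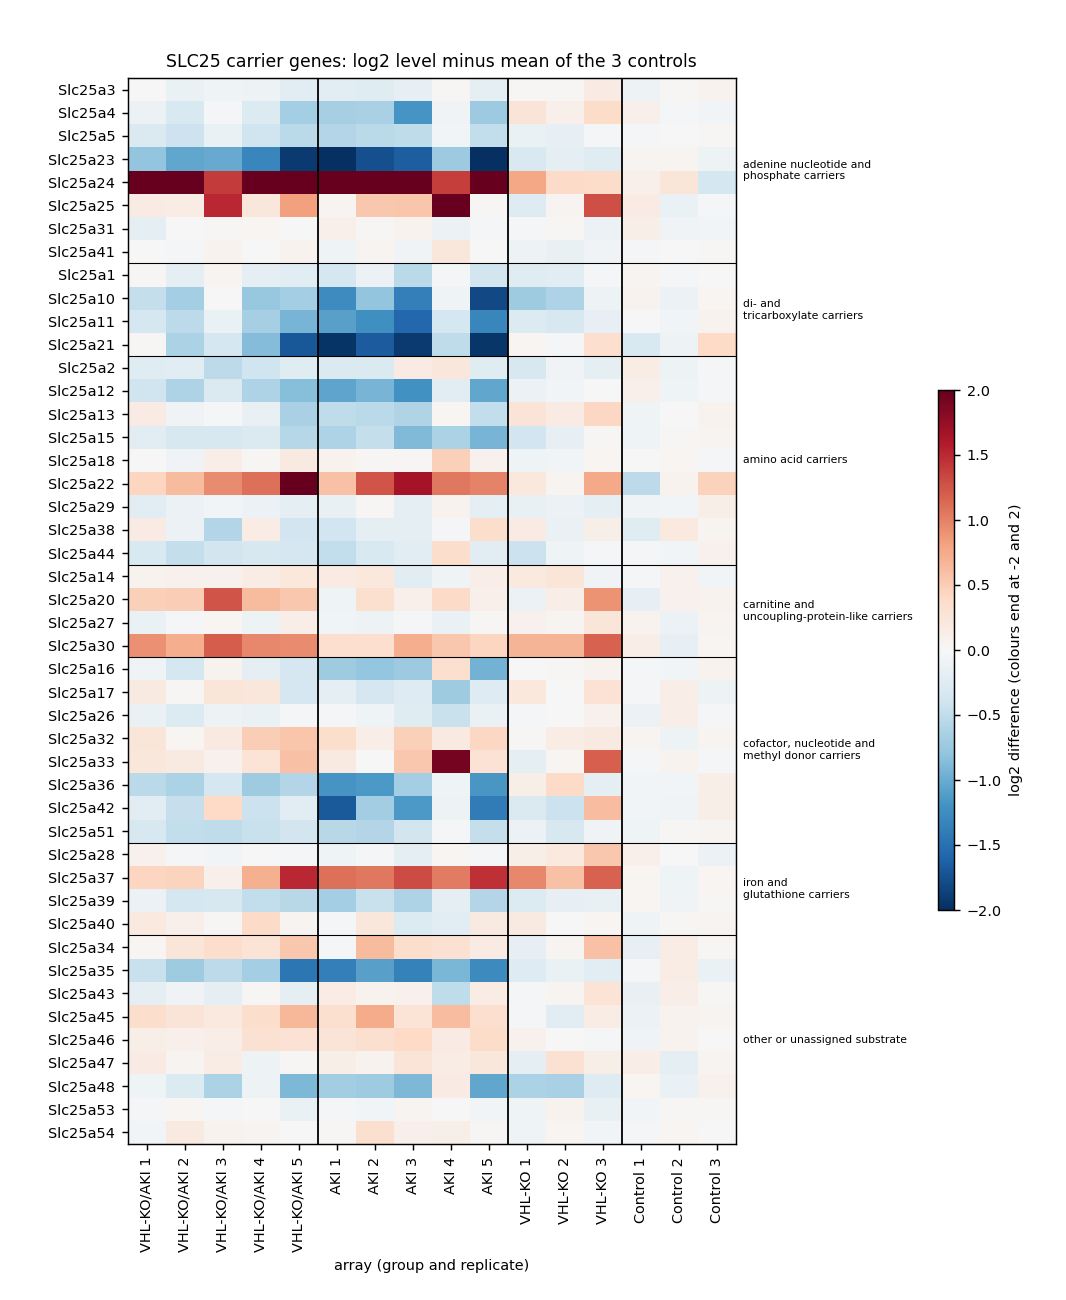
Colour map of the 46 SLC25 genes (rows, grouped by role) on the 16 arrays (columns, by group), as log2 level minus the mean of the 3 control arrays, with colours ending at -2 and 2. Slc25a24 is high and Slc25a23 and Slc25a35 are low on the injured arrays. Slc25a21 is low on the AKI arrays but varies in VHL-KO/AKI, where replicate 1 (8.30) reaches the control mean (8.27). AKI replicate 4 is paler than the other AKI arrays for most genes that fell.

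**Figure D2:**
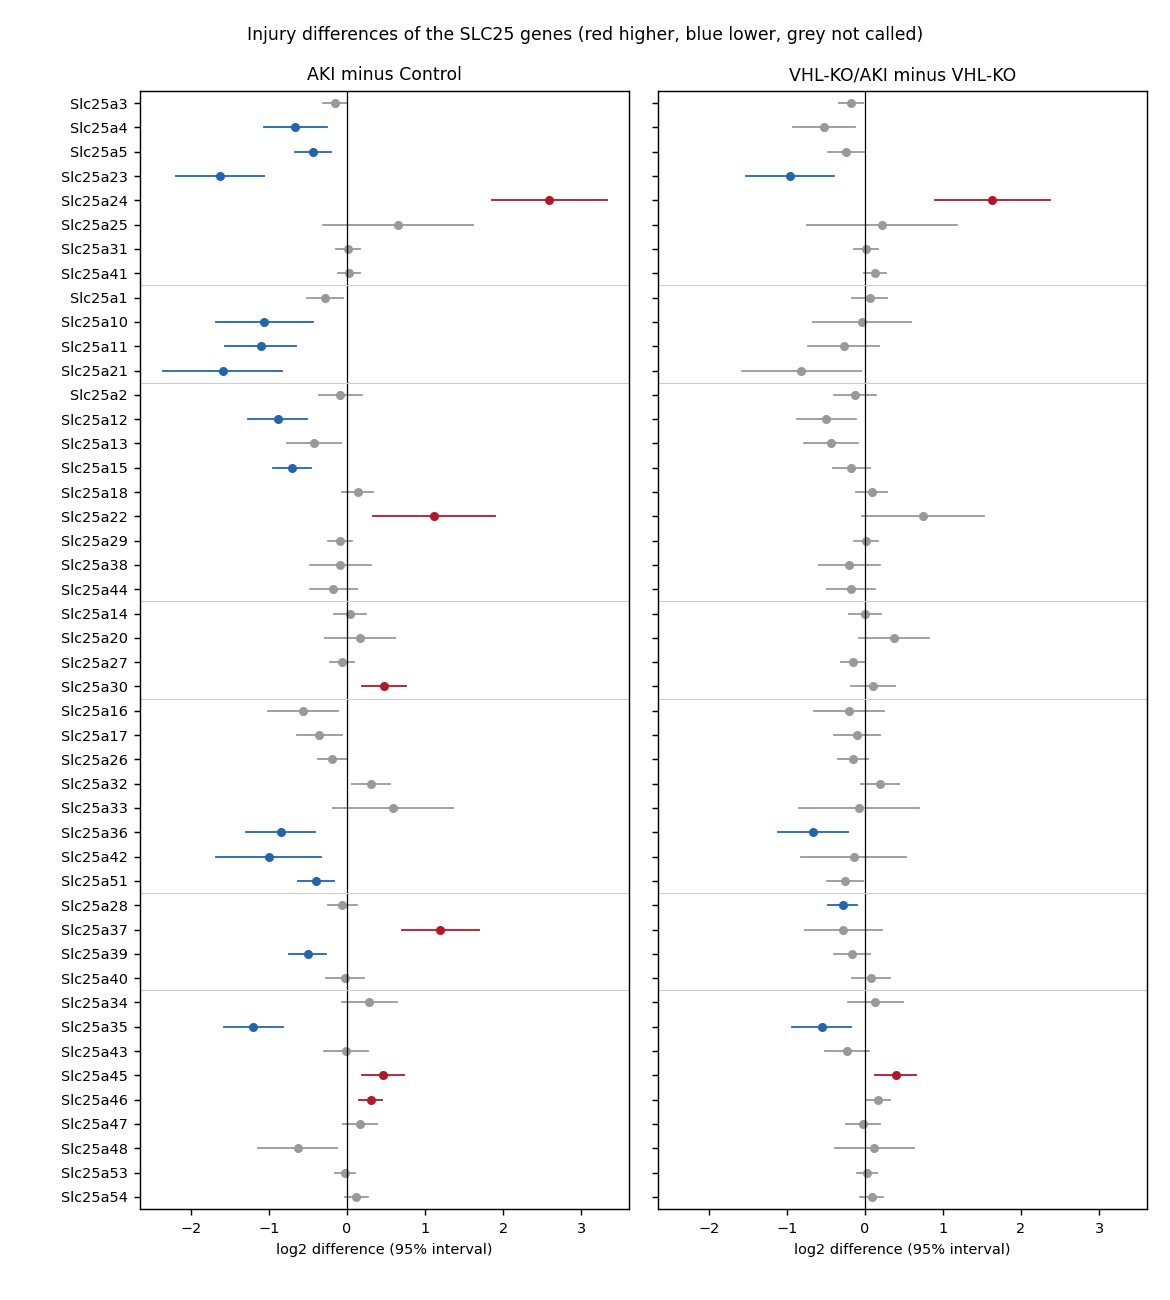
Log2 difference with its 95% interval for each of the 46 genes in AKI minus control (left) and VHL-KO/AKI minus VHL-KO kidneys (right), by role. Red points are called higher, blue points lower, and grey points did not pass, with 19 called on the left and 6 on the right.

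Among the carnitine and uncoupling-protein-like carriers, Slc25a30 was the 1 member called for Vhl deletion, both with and without injury. It was also the 1 of the 4 called in AKI against control kidneys, where their median difference was 0.10. Slc25a30, first described as a kidney mitochondrial carrier protein, and Slc25a14 resemble the uncoupling proteins. Their start regions are shown because Slc25a30 was the gene called on Vhl deletion and Slc25a14 is its closest relative in the list. The capitals mark the core of the hypoxia response element, ACGTG or GCGTG, searched on both strands, with overlapping matches counted as 1 place. Both are RefSeq sequences of 300 bases on GRCm38.p6, from 250 before to 50 after the start, 5′ to 3′ on the gene's strand. The Slc25a30 window is chr14:75786988-75787287 on the minus strand, and that of Slc25a14, the first of 3 listed starts, is chrX:48623198-48623497 on the plus strand.
Slc25a30: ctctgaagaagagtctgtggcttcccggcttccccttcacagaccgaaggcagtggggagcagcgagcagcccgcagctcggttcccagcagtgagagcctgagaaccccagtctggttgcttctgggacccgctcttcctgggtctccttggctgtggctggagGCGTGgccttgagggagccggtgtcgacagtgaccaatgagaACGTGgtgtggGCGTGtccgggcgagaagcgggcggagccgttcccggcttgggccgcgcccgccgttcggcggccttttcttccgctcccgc
Slc25a14: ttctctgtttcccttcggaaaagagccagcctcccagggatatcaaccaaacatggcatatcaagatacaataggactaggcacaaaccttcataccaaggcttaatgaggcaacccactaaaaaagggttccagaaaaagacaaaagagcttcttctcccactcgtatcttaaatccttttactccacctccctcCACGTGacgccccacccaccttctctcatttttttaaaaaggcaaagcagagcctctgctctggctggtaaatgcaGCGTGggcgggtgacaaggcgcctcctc
The Slc25a30 window holds a core at 3 places, -85, -43 and -32 bases from the start, and this Slc25a14 window at 2, -54 and 23 bases from it. The windows of the other Slc25a14 starts, which overlap this one, hold 3 places (-184, -108 and -35) and 2 places (-204 and -131). A core occurred in 27 of the 46 windows matched to 36 members (58.7%), and in 14380 of all 32851 windows (43.8%). A match describes these letters and not a bound site.

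Slc25a30 had log2 levels of 10.94, 10.74, 11.23, 10.98 and 10.96 in VHL-KO/AKI kidneys, against 10.36, 10.35, 10.75, 10.56 and 10.45 in AKI kidneys. It stood at 10.70, 10.70 and 11.20 in VHL-KO kidneys and at 10.14, 9.85 and 10.06 in control kidneys. All 3 VHL-KO and all 5 AKI arrays lay above every control array, while the lowest VHL-KO/AKI array (10.74) and the highest AKI array (10.75) just overlapped. Slc25a30 rose by 0.48 (SE 0.115, adjusted p 0.0345) in VHL-KO/AKI against AKI kidneys and by 0.85 (SE 0.148, adjusted p 0.0166) in VHL-KO against control kidneys. It also rose by 0.48 (SE 0.132, adjusted p 0.0138) in AKI against control kidneys. Between VHL-KO/AKI and VHL-KO kidneys the difference was 0.10, with a 95% interval of -0.18 to 0.39. The 2 deletion differences themselves differed by -0.37 (interval -0.77 to 0.027, adjusted p 0.451), which did not pass. For VHL-KO/AKI against AKI, the call ended when any 1 of 6 arrays was left out, namely replicates 1, 3 and 4 of VHL-KO/AKI and replicates 1, 2 and 5 of AKI (adjusted p 0.0603 to 0.102). For VHL-KO against control, the call ended when any 1 of 3 arrays was left out, namely replicate 3 of VHL-KO and replicates 2 and 3 of control (adjusted p 0.0706 to 0.0917). For AKI against control, the call ended without replicate 2 of control (adjusted p 0.0794).

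Slc25a14 did not pass in any comparison. The Slc25a14 levels were 5.49, 5.52, 5.51, 5.57 and 5.64 in VHL-KO/AKI kidneys and 5.59, 5.63, 5.20, 5.34 and 5.56 in AKI kidneys. VHL-KO kidneys had 5.61, 5.67 and 5.36, and control kidneys had 5.40, 5.51 and 5.36. Its groups overlapped throughout, at levels near the low end of the table. Slc25a20 exchanges acylcarnitine for carnitine and so brings fatty acids in for oxidation. For Slc25a20 the VHL-KO/AKI arrays gave 9.22, 9.25, 10.00, 9.38 and 9.30, and the AKI arrays gave 8.66, 9.07, 8.85, 9.13 and 8.85. Its levels were 8.64, 8.88 and 9.65 without injury in VHL-KO kidneys, and 8.59, 8.84 and 8.82 in control kidneys. All 5 VHL-KO/AKI arrays lay above all 5 AKI arrays, but the difference of 0.52 (SE 0.181, adjusted p 0.132) did not pass. Slc25a27, another relative of the uncoupling proteins, ranged from 5.65 to 6.04 over all arrays, with no call.

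The 8 adenine nucleotide and phosphate carriers had 1 rise and 3 falls in AKI against control kidneys (median -0.074). Slc25a24, Slc25a23 and Slc25a25 encode calcium-regulated carriers that exchange ATP-Mg for phosphate and so set the size of the matrix nucleotide pool. Slc25a24 had log2 levels of 9.05, 9.22, 8.43, 9.66 and 9.52 in VHL-KO/AKI kidneys, against 9.95, 9.95, 9.60, 8.41 and 10.22 in AKI kidneys. It stood at 7.81, 7.42 and 7.40 in VHL-KO kidneys and at 7.14, 7.27 and 6.69 in control kidneys. Every injured array lay above every uninjured one, and AKI replicate 4 was the lowest of its group. Slc25a24 rose by 2.59 (SE 0.344, adjusted p 9.98e-05) in AKI against control kidneys, which is 6.02-fold. It rose in VHL-KO/AKI against VHL-KO kidneys by 1.63 (SE 0.344, adjusted p 0.00586). Both calls held whichever single array was left out.

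The Slc25a23 levels were 9.43, 9.18, 9.20, 8.92 and 8.31 in VHL-KO/AKI kidneys and 8.23, 8.46, 8.57, 9.50 and 8.18 in AKI kidneys. VHL-KO kidneys had 9.92, 10.02 and 9.97, and control kidneys had 10.27, 10.27 and 10.12. Here every injured array lay below every uninjured one, and AKI replicate 4, at 9.50, was the highest injured array. Slc25a23 fell by 1.63 (SE 0.265, adjusted p 0.000411) in AKI against control kidneys, and by 0.96 (SE 0.265, adjusted p 0.0255) in VHL-KO/AKI against VHL-KO kidneys. For the second fall, the call ended when any 1 of 4 arrays was left out, namely replicate 4 of VHL-KO/AKI and replicates 1, 2 and 3 of VHL-KO (adjusted p 0.0535 to 0.0808). For Slc25a25 the VHL-KO/AKI arrays gave 6.99, 6.97, 8.32, 7.05 and 7.65, and the AKI arrays gave 6.88, 7.37, 7.38, 8.91 and 6.84. Its levels were 6.56, 6.87 and 8.11 without injury in VHL-KO kidneys, and 6.99, 6.69 and 6.78 in control kidneys. Slc25a25 overlapped between all groups, with single high arrays in AKI (replicate 4), VHL-KO/AKI (replicate 3) and VHL-KO (replicate 3). Its AKI minus control difference was 0.65 (interval -0.31 to 1.62).

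Slc25a4 and Slc25a5 encode the ADP/ATP translocases that pass ATP out of the mitochondrion. Slc25a4 had log2 levels of 10.42, 10.23, 10.50, 10.27 and 9.86 in VHL-KO/AKI kidneys, against 9.87, 9.89, 9.35, 10.46 and 9.80 in AKI kidneys. It stood at 10.80, 10.64 and 10.91 in VHL-KO kidneys and at 10.64, 10.49 and 10.47 in control kidneys. Every AKI array lay below every control array, and every VHL-KO/AKI array below every VHL-KO array. Slc25a4 fell by 0.66 (SE 0.187, adjusted p 0.0151) in AKI against control kidneys, and its VHL-KO/AKI minus VHL-KO difference was -0.52 (SE 0.187, adjusted p 0.078). The first call ended without replicate 1 of control (adjusted p 0.0653). The Slc25a5 levels were 12.70, 12.58, 12.85, 12.60 and 12.45 in VHL-KO/AKI kidneys and 12.40, 12.45, 12.48, 12.93 and 12.50 in AKI kidneys. VHL-KO kidneys had 12.85, 12.82 and 12.97, and control kidneys had 12.96, 13.00 and 13.00. All AKI arrays were again below all control arrays, and Slc25a5 fell by 0.44 (SE 0.109, adjusted p 0.00712). VHL-KO/AKI and VHL-KO arrays overlapped, with a difference of -0.25 (SE 0.109, adjusted p 0.157). The 2 further Slc25a5 rows had AKI means of 12.37 and 12.25, against control means of 12.80 and 12.69.

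Slc25a3, the phosphate carrier that feeds ATP synthesis, ranged from 12.86 to 13.27 over all arrays. Its difference was -0.16 (SE 0.0722, adjusted p 0.121) in AKI against control kidneys and -0.17 (SE 0.0722, adjusted p 0.13) in VHL-KO/AKI against VHL-KO kidneys. Slc25a31, a translocase known from testis, lay at 4.39 to 4.71, and Slc25a41, a calcium-independent ATP-Mg carrier, at 4.40 to 4.77, with no call in any comparison.

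Of the 4 di- and tricarboxylate carriers, 3 fell in AKI against control kidneys, with a median difference of -1.08, and none of the 4 was called in VHL-KO/AKI against VHL-KO kidneys. Slc25a10 exchanges malate or succinate for phosphate, and Slc25a11 exchanges 2-oxoglutarate for malate in the malate-aspartate shuttle. For Slc25a10 the VHL-KO/AKI arrays gave 10.62, 10.42, 11.12, 10.34 and 10.43, and the AKI arrays gave 9.84, 10.31, 9.73, 11.01 and 9.30. Its levels were 10.39, 10.48 and 11.00 without injury in VHL-KO kidneys, and 11.17, 10.99 and 11.14 in control kidneys. AKI replicate 4 (11.01) was the 1 AKI array inside the control range, and the other AKI arrays were lower. Slc25a10 fell by 1.06 (SE 0.292, adjusted p 0.0132) in AKI against control kidneys. Between VHL-KO/AKI and VHL-KO kidneys its difference was -0.038 (interval -0.66 to 0.59).

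Slc25a11 had log2 levels of 11.36, 11.18, 11.57, 11.04 and 10.77 in VHL-KO/AKI kidneys, against 10.62, 10.49, 10.14, 11.35 and 10.41 in AKI kidneys. It stood at 11.43, 11.39 and 11.55 in VHL-KO kidneys and at 11.70, 11.65 and 11.78 in control kidneys. Every array of the other groups lay below every control array, and 4 of the 5 AKI arrays were below all VHL-KO/AKI arrays. Slc25a11 fell by 1.11 (SE 0.213, adjusted p 0.00136) in AKI against control kidneys. Its differences were -0.27 (SE 0.213, adjusted p 0.458) in VHL-KO/AKI against VHL-KO and -0.25 (SE 0.238, adjusted p 0.88) in VHL-KO against control kidneys. Slc25a21 carries 2-oxoadipate, an intermediate of lysine and tryptophan breakdown. The Slc25a21 levels were 8.30, 7.64, 7.92, 7.41 and 6.58 in VHL-KO/AKI kidneys and 6.32, 6.61, 6.37, 7.76 and 6.33 in AKI kidneys. VHL-KO kidneys had 8.31, 8.23 and 8.60, and control kidneys had 7.98, 8.17 and 8.68. All AKI arrays lay below all control arrays, with replicate 4 again the highest of its group. Slc25a21 fell by 1.60 (SE 0.36, adjusted p 0.00386) in AKI against control kidneys. The difference between VHL-KO/AKI and VHL-KO kidneys was -0.81 (SE 0.36, adjusted p 0.158). Slc25a1, which exports citrate for fatty acid synthesis, differed by -0.28 (SE 0.105, adjusted p 0.0576) in AKI against control kidneys.

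**Figure D3:**
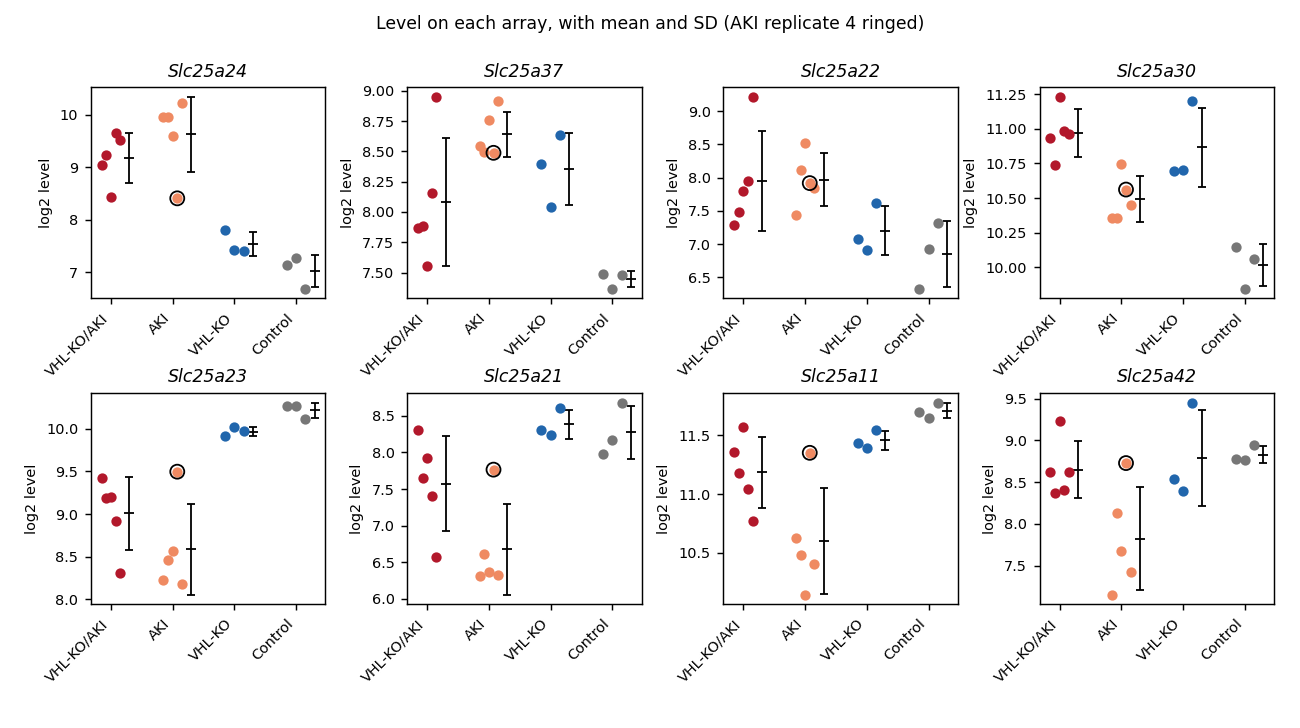
Log2 level of 8 SLC25 genes on each array, with the group mean and SD beside the points and AKI replicate 4 ringed. Slc25a24 separates injured from uninjured arrays upward and Slc25a23 downward, and of the AKI arrays the ringed one sits nearest the uninjured groups for Slc25a24, Slc25a23, Slc25a21, Slc25a11 and Slc25a42.

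The 9 amino acid carriers had 2 falls and 1 rise in AKI against control kidneys (median -0.089). Slc25a12 and Slc25a13 encode the aspartate-glutamate carriers of the malate-aspartate shuttle. For Slc25a12 the VHL-KO/AKI arrays gave 10.04, 9.81, 10.15, 9.81 and 9.58, and the AKI arrays gave 9.39, 9.51, 9.23, 10.22 and 9.39. Its levels were 10.31, 10.38 and 10.42 without injury in VHL-KO kidneys, and 10.54, 10.35 and 10.41 in control kidneys. All AKI arrays lay below all control arrays and all VHL-KO/AKI arrays below all VHL-KO arrays. Slc25a12 fell by 0.89 (SE 0.177, adjusted p 0.0018) in AKI against control kidneys, while -0.49 (SE 0.177, adjusted p 0.0803) in VHL-KO/AKI against VHL-KO kidneys did not pass. Log2 levels of Slc25a13 were 9.91, 9.68, 9.72, 9.61 and 9.10 in VHL-KO/AKI kidneys, and 9.24, 9.21, 9.15, 9.78 and 9.26 in AKI kidneys. Levels in VHL-KO kidneys were 10.01, 9.92 and 10.17, with 9.66, 9.77 and 9.83 in control kidneys. AKI replicate 4 was the 1 AKI array inside the control range, and every VHL-KO array was above every control array. Slc25a13 did not pass, at -0.42 (SE 0.161, adjusted p 0.0643) in AKI against control and -0.43 (SE 0.161, adjusted p 0.0937) in VHL-KO/AKI against VHL-KO kidneys.

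Slc25a22 and Slc25a18 encode the mitochondrial glutamate carriers. Slc25a22 had log2 levels of 7.29, 7.49, 7.80, 7.96 and 9.21 in VHL-KO/AKI kidneys, against 7.44, 8.12, 8.52, 7.92 and 7.85 in AKI kidneys. It stood at 7.07, 6.92 and 7.62 in VHL-KO kidneys and at 6.33, 6.93 and 7.31 in control kidneys. All AKI arrays lay above all control arrays, VHL-KO/AKI replicate 5 was the highest of all, and VHL-KO/AKI arrays overlapped VHL-KO arrays. Slc25a22 rose by 1.11 (SE 0.365, adjusted p 0.033) in AKI against control kidneys. The call ended when any 1 of 4 arrays was left out, namely replicates 2 and 3 of AKI and replicates 1 and 2 of control (adjusted p 0.0589 to 0.168). Its VHL-KO/AKI minus VHL-KO difference was 0.75 (SE 0.365, adjusted p 0.203). The Slc25a18 levels were 4.69, 4.63, 4.84, 4.73 and 4.88 in VHL-KO/AKI kidneys and 4.78, 4.73, 4.72, 5.17 and 4.78 in AKI kidneys. VHL-KO kidneys had 4.61, 4.65 and 4.74, and control kidneys had 4.69, 4.74 and 4.67. Slc25a18 overlapped between groups at the low end of the table and was not called.

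Slc25a15, the ornithine carrier of the urea cycle, was with Slc25a37 the member with the smallest unadjusted p for the interaction. For Slc25a15 the VHL-KO/AKI arrays gave 9.60, 9.50, 9.50, 9.54 and 9.25, and the AKI arrays gave 9.21, 9.34, 8.94, 9.19 and 8.90. Its levels were 9.44, 9.66 and 9.84 without injury in VHL-KO kidneys, and 9.73, 9.85 and 9.88 in control kidneys. All AKI arrays lay below all control arrays, and Slc25a15 fell by 0.71 (SE 0.113, adjusted p 0.000372). The deletion difference was 0.36 (SE 0.0978, adjusted p 0.0546) with injury and -0.18 (SE 0.126, adjusted p 0.802) without it. Their difference was 0.53 (unadjusted p 0.00446, adjusted p 0.2). Of the rest, Slc25a38, a glycine carrier needed for haem synthesis in erythroid cells, ranged from 8.61 to 9.54, and Slc25a44, a carrier of branched-chain amino acids, from 8.12 to 8.96. Slc25a2 and Slc25a29, carriers of basic amino acids, lay at 4.99 to 5.75 and 5.09 to 5.42. None of these 4 was called in any comparison.

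Of the 8 cofactor, nucleotide and methyl donor carriers measured, 3 fell in AKI against control kidneys (median -0.38). Slc25a42 brings coenzyme A into the matrix, and Slc25a16 has also been linked to coenzyme A. Log2 levels of Slc25a42 were 8.62, 8.37, 9.23, 8.40 and 8.62 in VHL-KO/AKI kidneys, and 7.15, 8.13, 7.68, 8.73 and 7.43 in AKI kidneys. Levels in VHL-KO kidneys were 8.53, 8.40 and 9.45, with 8.78, 8.76 and 8.94 in control kidneys. All AKI arrays lay below all control arrays, and VHL-KO/AKI and VHL-KO arrays overlapped. Slc25a42 fell by 1.00 (SE 0.314, adjusted p 0.0261) in AKI against control kidneys. The call ended when any 1 of 6 arrays was left out, namely replicates 1, 3 and 5 of AKI and replicates 1, 2 and 3 of control (adjusted p 0.0512 to 0.0852). Slc25a16 had log2 levels of 10.68, 10.39, 10.82, 10.54 and 10.40 in VHL-KO/AKI kidneys, against 10.02, 9.96, 10.02, 11.06 and 9.80 in AKI kidneys. It stood at 10.73, 10.76 and 10.81 in VHL-KO kidneys and at 10.72, 10.69 and 10.82 in control kidneys. The AKI arrays other than replicate 4 lay below every array of the other groups, and replicate 4 above all of them. With it included, the AKI minus control difference of Slc25a16 was -0.57 (SE 0.209, adjusted p 0.0553), and without it -0.79 (adjusted p 2e-05).

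Slc25a36 and Slc25a33 carry pyrimidine nucleotides. The Slc25a36 levels were 10.81, 10.71, 11.00, 10.65 and 10.77 in VHL-KO/AKI kidneys and 10.17, 10.20, 10.67, 11.27 and 10.18 in AKI kidneys. VHL-KO kidneys had 11.46, 11.73 and 11.17, and control kidneys had 11.30, 11.29 and 11.46. Every injured array of Slc25a36 lay below the uninjured arrays of its comparison, and AKI replicate 4 (11.27) was highest of its group. Slc25a36 fell by 0.85 (SE 0.208, adjusted p 0.00647) in AKI against control and by 0.67 (SE 0.208, adjusted p 0.0468) in VHL-KO/AKI against VHL-KO kidneys. For the second, the call ended when any 1 of 10 arrays was left out, namely replicates 1, 2, 4 and 5 of VHL-KO/AKI, replicate 3 of AKI, replicates 1 and 2 of VHL-KO and replicates 1, 2 and 3 of control (adjusted p 0.0546 to 0.187). Its second row, dimmer, had means of 9.54 in VHL-KO/AKI, 9.28 in AKI, 10.04 in VHL-KO and 9.91 in control kidneys. For Slc25a33 the VHL-KO/AKI arrays gave 6.19, 6.15, 6.06, 6.23 and 6.56, and the AKI arrays gave 6.15, 5.98, 6.50, 7.88 and 6.26. Its levels were 5.78, 6.01 and 7.16 without injury in VHL-KO kidneys, and 5.93, 6.03 and 5.94 in control kidneys. Slc25a33 stood high in AKI replicate 4 and VHL-KO replicate 3, with the rest between 5.78 and 6.56, and was not called.

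Slc25a51, the carrier of NAD+, averaged 9.28 ± 0.085 in VHL-KO/AKI and 9.30 ± 0.23 in AKI kidneys (SD, n = 5 each), against 9.53 ± 0.14 in VHL-KO and 9.71 ± 0.080 in control kidneys (SD, n = 3 each). It fell by 0.40 (SE 0.109, adjusted p 0.0122) in AKI against control kidneys. The call ended without replicate 3 of control (adjusted p 0.0531). Slc25a32 brings folate into mitochondria, and its difference of 0.31 (SE 0.113, adjusted p 0.0534) in AKI against control kidneys, with no overlap, did not pass. Slc25a17, a carrier of the peroxisome, differed by 0.42 (SE 0.118, adjusted p 0.0602) in VHL-KO/AKI against AKI and by -0.35 (SE 0.136, adjusted p 0.066) in AKI against control kidneys. Slc25a26, which imports the methyl donor S-adenosylmethionine, ranged from 6.75 to 7.33 with no call.

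The iron and glutathione carriers held 1 rise and 1 fall in AKI against control kidneys (4 genes, median -0.044). Slc25a37 and Slc25a28 encode mitoferrin 1 and 2, which bring iron into mitochondria for haem and iron-sulphur clusters, mitoferrin 1 chiefly in red cell precursors. Slc25a37 had log2 levels of 7.87, 7.89, 7.55, 8.16 and 8.95 in VHL-KO/AKI kidneys, against 8.54, 8.50, 8.76, 8.49 and 8.91 in AKI kidneys. It stood at 8.40, 8.04 and 8.63 in VHL-KO kidneys and at 7.49, 7.37 and 7.48 in control kidneys. Every array of the 3 treated groups lay above every control array, and 4 of the 5 VHL-KO/AKI arrays lay below all AKI arrays, with replicate 5 above them. Slc25a37 rose by 1.19 (SE 0.232, adjusted p 0.00145) in AKI against control kidneys. The other differences were -0.56 (SE 0.201, adjusted p 0.142) in VHL-KO/AKI against AKI, -0.27 (SE 0.232, adjusted p 0.501) in VHL-KO/AKI against VHL-KO and 0.91 (SE 0.259, adjusted p 0.204) in VHL-KO against control kidneys. The deletion difference with injury minus that without it was -1.47 (SE 0.328, unadjusted p 0.000452, adjusted p 0.116), the smallest p of the members.

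Without VHL-KO/AKI replicate 5, the Slc25a37 difference was -0.77 (adjusted p 0.00394) in VHL-KO/AKI against AKI and 0.91 (adjusted p 0.0216) in VHL-KO against control kidneys, and the interaction -1.68 (adjusted p 0.0088). All 3 passed in that fit, which left out the 1 VHL-KO/AKI array that lay above all AKI arrays. With all arrays none of the 3 passed. The mean of the 3 erythroid markers measured (Alas2, Epb42 and Slc4a1) was 6.37 to 6.77 in VHL-KO/AKI, 5.88 to 6.54 in AKI, 7.94 to 8.13 in VHL-KO and 6.91 to 7.13 in control kidneys. Slc4a1 is also among the collecting duct markers, so this mean is not one of red cells alone. In AKI against control kidneys Slc4a1 differed by -2.45, and the other erythroid markers by -0.33 and 0.077. In VHL-KO/AKI against VHL-KO kidneys Slc4a1 differed by -2.28, and the others by -1.99 and -0.0034. Alas2, the erythroid enzyme that starts haem synthesis, rose by 2.11 (SE 0.266, adjusted p 0.00176) in VHL-KO against control kidneys. The part of red cells in the Slc25a37 levels was not tested.

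The Slc25a28 levels were 8.58, 8.46, 8.42, 8.49 and 8.44 in VHL-KO/AKI kidneys and 8.39, 8.45, 8.29, 8.53 and 8.46 in AKI kidneys. VHL-KO kidneys had 8.60, 8.67 and 9.02, and control kidneys had 8.58, 8.50 and 8.37. All VHL-KO/AKI arrays lay below all VHL-KO arrays, and all VHL-KO arrays above all control arrays, as for 14.9% and 11.8% of all genes. Slc25a28 fell by 0.29 (SE 0.088, adjusted p 0.0431) in VHL-KO/AKI against VHL-KO kidneys. The call ended when any 1 of 10 arrays was left out, namely replicates 2, 3, 4 and 5 of VHL-KO/AKI, replicates 1, 2 and 5 of AKI, replicates 2 and 3 of VHL-KO and replicate 2 of control (adjusted p 0.0521 to 0.25). Its difference was -0.16 without VHL-KO replicate 3, and it did not pass after median centring, quantile or cyclic loess scaling. VHL-KO minus control was 0.28 (SE 0.0984, adjusted p 0.36). Slc25a39 encodes the glutathione importer, and Slc25a40 its near relative. For Slc25a39 the VHL-KO/AKI arrays gave 11.75, 11.53, 11.56, 11.37 and 11.32, and the AKI arrays gave 11.19, 11.42, 11.25, 11.67 and 11.29. Its levels were 11.59, 11.70 and 11.73 without injury in VHL-KO kidneys, and 11.91, 11.80 and 11.90 in control kidneys. Every array of the other groups lay below every control array. Slc25a39 fell by 0.51 (SE 0.109, adjusted p 0.00281) in AKI against control kidneys. Log2 levels of Slc25a40 were 8.49, 8.39, 8.31, 8.68 and 8.35 in VHL-KO/AKI kidneys, and 8.25, 8.52, 8.02, 8.08 and 8.47 in AKI kidneys. Levels in VHL-KO kidneys were 8.48, 8.29 and 8.34, with 8.21, 8.32 and 8.36 in control kidneys. Slc25a40 overlapped between all groups and was not called.

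Among the 9 carriers with other or less settled substrates, Slc25a45 and Slc25a46 rose and Slc25a35 fell in AKI against control kidneys (median 0.12). Slc25a35 had log2 levels of 8.86, 8.60, 8.79, 8.63 and 7.88 in VHL-KO/AKI kidneys, against 7.95, 8.22, 7.97, 8.40 and 8.04 in AKI kidneys. It stood at 9.05, 9.18 and 9.09 in VHL-KO kidneys and at 9.29, 9.46 and 9.19 in control kidneys. Every injured array lay below every uninjured one, and every VHL-KO array below every control array. Slc25a35 fell by 1.20 (SE 0.176, adjusted p 0.000206) in AKI against control and by 0.55 (SE 0.176, adjusted p 0.0497) in VHL-KO/AKI against VHL-KO kidneys. For the second, the call ended when any 1 of 12 arrays was left out, namely replicates 2 and 4 of VHL-KO/AKI, replicates 1, 2, 3 and 5 of AKI, replicates 1, 2 and 3 of VHL-KO and replicates 1, 2 and 3 of control (adjusted p 0.0566 to 0.143). It also did not pass after median centring, quantile or cyclic loess scaling. The Slc25a45 levels were 9.35, 9.25, 9.19, 9.35 and 9.66 in VHL-KO/AKI kidneys and 9.32, 9.73, 9.27, 9.60 and 9.32 in AKI kidneys. VHL-KO kidneys had 8.97, 8.77 and 9.14, and control kidneys had 8.88, 9.05 and 9.04. Every injured array lay above every uninjured one. Slc25a45 rose by 0.46 (SE 0.125, adjusted p 0.0124) in AKI against control and by 0.39 (SE 0.125, adjusted p 0.0484) in VHL-KO/AKI against VHL-KO kidneys. The first call ended without replicate 1 of control (adjusted p 0.0654). For the second rise, the call ended when any 1 of 11 arrays was left out, namely replicates 1, 2, 4 and 5 of VHL-KO/AKI, replicates 1 and 5 of AKI, replicates 1 and 2 of VHL-KO and replicates 1, 2 and 3 of control (adjusted p 0.0541 to 0.202).

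Slc25a46, an outer membrane protein tied to mitochondrial fusion and fission, averaged 10.68 ± 0.10 in VHL-KO/AKI and 10.80 ± 0.094 in AKI kidneys (SD, n = 5 each), against 10.52 ± 0.060 in VHL-KO and 10.49 ± 0.072 in control kidneys (SD, n = 3 each). It rose by 0.30 (SE 0.0701, adjusted p 0.00462) in AKI against control kidneys. Slc25a48 averaged 7.09 ± 0.36 in VHL-KO/AKI, 6.85 ± 0.47 in AKI, 6.97 ± 0.22 in VHL-KO and 7.49 ± 0.11 in control kidneys, and its AKI minus control difference was -0.63 (SE 0.238, adjusted p 0.0604). Slc25a34 ranged from 6.64 to 7.44 and Slc25a43 from 6.29 to 7.08. Slc25a47, Slc25a53 and Slc25a54 lay at 4.61 to 5.12, 4.19 to 4.42 and 3.96 to 4.37. None of these last 6 genes was called in any comparison.

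Few carriers passed the test on Vhl deletion. Slc25a30 was the 1 member called in VHL-KO/AKI against AKI kidneys (2.17% of 46), where 3.88% of all genes were called, 2.48% higher and 1.4% lower. In VHL-KO against control kidneys Slc25a30 was again the 1 member, where 0.527% of all genes were called, 0.476% higher. Arrays of these 2 groups did not overlap for 5 members upward and 7 downward (10.9% and 15.2%), beside 11.8% and 5.33% of all genes. In VHL-KO/AKI against AKI kidneys this held for 1 and 0 members (2.17% and 0%), beside 2.19% and 1.58% of all genes. The 7 endothelial markers averaged 9.68 to 9.92 in VHL-KO against 9.20 to 9.31 in control kidneys. All 7 differences were above 0 and none was called (median 0.55). All 10 proximal tubule markers differed by less than 0 there (median -0.38, none called), at averages of 11.89 to 12.06 against 12.31 to 12.40. So did all 8 male-biased kidney genes (median -0.89, none called), whose mean was 11.61 in control replicate 3. The part of these marker differences was not tested. For the interaction, the deletion difference with injury minus that without it, limma called 0 members and 0.01% of all genes (2 genes), with 8 members and 12% of all genes at an unadjusted p under 0.05. The unadjusted count was 14 members in VHL-KO/AKI against AKI (30.4%, beside 18.7% of all genes) and 3 in VHL-KO against control kidneys (8.35% of all genes). Median member differences were 0.053 with injury and 0.024 without it.

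The deletion count in injured kidneys depended on AKI replicate 4. Without it, 13 members were called in VHL-KO/AKI against AKI kidneys, 12 higher and 1 lower, where 12% of all genes were called. The differences of the 11 higher members other than Slc25a30, none of them called with all arrays, ran from 0.38 for Slc25a15 to 1.17 for Slc25a21. Slc25a42 differed by 1.05 (adjusted p 0.01), Slc25a10 by 0.79 (adjusted p 0.0177) and Slc25a11 by 0.77 (adjusted p 0.00266). The others were Slc25a4, Slc25a12, Slc25a15, Slc25a16, Slc25a23, Slc25a35 and Slc25a36. Slc25a24 fell by 0.75 (adjusted p 0.0327) in that fit. With all 5 AKI arrays, Slc25a21 stood at 0.89 (SE 0.312, adjusted p 0.13), Slc25a42 at 0.83 (SE 0.272, adjusted p 0.107) and Slc25a24 at -0.45 (SE 0.298, adjusted p 0.459).

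Without VHL-KO/AKI replicate 5 the count was 8, with 7.98% of all genes called, and Slc25a13, Slc25a17 and Slc25a37 were among the 8. It was 0 without AKI replicate 1 or 5, or without VHL-KO/AKI replicate 1, 3 or 4, with 9 to 12 members at an unadjusted limma p under 0.05. These fits with 0 members called 1.15% to 2.59% of all genes at the adjusted p. The share of all genes at the unadjusted p was not counted for them, and with all arrays it was 18.7%. The VHL-KO against control count was 0 without control replicate 2 or 3 or VHL-KO replicate 3, beside 0.171% to 0.241% of all genes. At an unadjusted p under 0.05 these fits had 2 or 3 members, and their share of all genes was not counted. With all arrays that share was 8.35%, beside 3 members. The VHL-KO against control count was 2 without VHL-KO/AKI replicate 5, where 0.562% of all genes were called. Without AKI replicate 4 the interaction called 5 members where 3.11% of all genes were called. Slc25a10 was at 1.26 (adjusted p 0.0431), Slc25a11 at 1.02 (adjusted p 0.0294), Slc25a16 at 0.59 (adjusted p 0.0373), Slc25a48 at 0.96 (adjusted p 0.0487) and Slc25a37 at -1.51 (adjusted p 0.0369). It called 2 members, Slc25a35 and Slc25a37, without VHL-KO/AKI replicate 5, beside 1.03% of all genes. The AKI arrays enter the comparisons with VHL-KO/AKI and with control, so those values are not independent of each other. Proximal tubule markers were 10.89 to 11.60 in VHL-KO/AKI and 10.62 to 11.99 in AKI kidneys, or 10.62 to 11.20 in AKI without replicate 4, and their part was not tested.

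**Figure D4:**
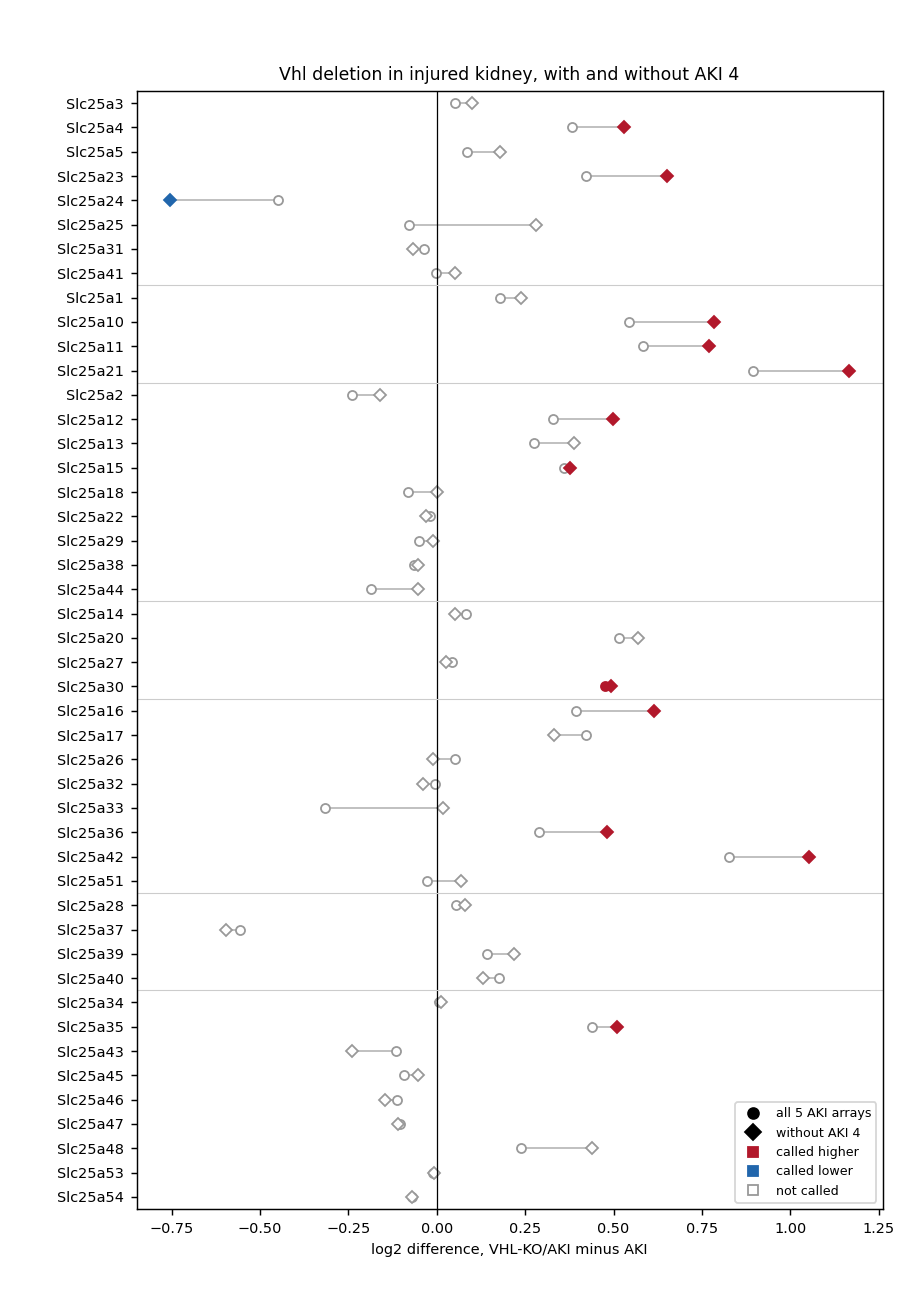
Log2 difference of VHL-KO/AKI minus AKI kidneys for each of the 46 genes, by role, with all 5 AKI arrays (circles) and without AKI replicate 4 (diamonds), red where called higher, blue where called lower and open where not called. With all arrays 1 gene, Slc25a30, is filled, and without AKI replicate 4 there are 13.

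Related genes, some of them transport proteins that go by other symbols, were counted in the same fit. Of 18 measured mitochondrial transport proteins outside the SLC25 symbols, 2 rose and 8 fell in AKI against control kidneys, with a list median of -0.19. The largest difference of the list was 2.53, for Ucp1, which is also among the 6 adipose markers. Among those that fell were sideroflexins, a family that includes the mitochondrial serine transporter, namely Sfxn2 (-1.78), Sfxn4 (-0.95) and Sfxn5 (-0.94). Sfxn4 rose by 0.50 (SE 0.084, adjusted p 0.00583) in VHL-KO/AKI against AKI kidneys, as did Abcb10, an inner membrane transporter of erythroid and other cells, by 0.33 (SE 0.066, adjusted p 0.0148). Of 15 genes of protein import into mitochondria, which also inserts the carriers, 2 rose and 2 fell in AKI against control kidneys, Tomm70a by 0.45 and Tomm20 by 0.37 on the rising side. All 4 malate-aspartate shuttle enzymes were measured, and 3 fell, Mdh1 by 0.57, Mdh2 by 0.27 and Got2 by 0.20. In the carnitine system 2 of 5 fell, the carnitine transporter Slc22a5 by 0.95 and Bbox1 of carnitine synthesis by 0.52.

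Of 9 regulators of mitochondrial biogenesis, 4 fell in AKI against control kidneys (list median -0.26), the coactivators Ppargc1a by 1.33 (SE 0.214, adjusted p 0.000385) and Ppargc1b by 0.89, and the nuclear receptors Esrrg by 1.22 and Esrra by 0.49. Between VHL-KO/AKI and VHL-KO kidneys 3 fell, Ppargc1a by 0.98, Esrrg by 0.89 and Ppargc1b by 0.51. None was called in the comparisons of Vhl deletion. Of the 5 measured genes of glutamine use, Oat, which makes glutamate from ornithine, and Pck1 fell in AKI against control kidneys, by 1.26 and 1.04. Pck1, the entry enzyme of gluconeogenesis, rose by 1.32 (SE 0.226, adjusted p 0.00633) in VHL-KO/AKI against AKI kidneys.

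The 7 one-carbon enzymes split in AKI against control kidneys. Mthfd2 rose by 1.51 and Mthfd1l by 1.27, both mitochondrial, while cytosolic Mthfd1 fell by 1.59, Shmt1 by 1.58 and mitochondrial Shmt2 by 0.93. Shmt2 rose in VHL-KO/AKI against AKI kidneys by 1.20 (SE 0.166, adjusted p 0.00151) and Aldh1l2, which makes NADPH from mitochondrial folate, by 0.79 (SE 0.209, adjusted p 0.0485). Of 5 glutathione genes 3 rose in AKI against control kidneys, the cystine importer Slc7a11 by 4.21, Gclm by 0.58 and Gsr by 0.39. Of 9 iron-sulphur and haem genes, 2 rose and 3 fell, and Hmox1, which breaks haem down, rose by 4.61 (SE 0.32, adjusted p 1.01e-06). Hmox1 also rose by 2.11 (SE 0.358, adjusted p 0.0148) in VHL-KO against control kidneys and fell by 1.18 (SE 0.277, adjusted p 0.0312) in VHL-KO/AKI against AKI kidneys. It was 1 of the 2 genes called for the interaction, at -3.29 (SE 0.453, adjusted p 0.0466).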

How the data were processed

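Per the labels' protocols, RNA was extracted from frozen kidney tissue with RNA-Bee, and random-primed cDNA was labelled with biotin for single-colour whole-transcript arrays. The deposited table holds log2 probe set levels, from 3.34 to 14.71. Per the submitters' processing notes the authors used Partek 6.4 and RMA, but the sources used here give neither their order and settings nor a genome build. Of 35556 rows, 21789 carried 1 gene symbol in the platform annotation, 1621 several and 12146 none. 1 row per gene, the brightest, left 19938 genes. All 46 members matched a RefSeq gene.

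Groups came from sample titles. limma 3.58.1 under R 4.3.3 fitted 1 mean per group over all 16 arrays (12 residual and 2.83 prior degrees of freedom), with 2-sided tests, Benjamini-Hochberg adjustment over all genes, and a call at an adjusted p under 0.05. Errors of differences are standard errors of that fit, and intervals are at 95%. The number of arrays limits the precision. Levels of different genes were not compared.

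The members, the role, related-gene and marker lists, and the tests were chosen with earlier results of these data known. Every array value is given for the 5 called members that rose most and the 5 that fell most in each comparison (the pair with the smallest p for the interaction) and for related pairs of carriers, and for Slc25a20, which was chosen after its values were seen. Alternatives changed the rows, a filter on dim genes, the scaling, the variance model, array weights, the groups fitted, a replicate block, a sex-linked covariate, and each array in turn.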

Additional observations from a re-analysis of the deposited data

Results flagged for a closer look

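In 15 of 94 sets of 5 arrays (46 members and Vhl, in both injured groups) 1 array lay far from the others relative to the group's range, where chance gives about 1 in 20 sets. AKI replicate 4 was that array in 11 sets. It was the highest AKI array for Slc25a3 (13.13), Slc25a5 (12.93), Slc25a12 (10.22), Slc25a13 (9.78), Slc25a16 (11.06), Slc25a18 (5.17), Slc25a21 (7.76), Slc25a25 (8.91) and Slc25a33 (7.88), and the lowest for Slc25a17 (10.06) and Slc25a43 (6.29). In VHL-KO/AKI kidneys, replicate 5 was lowest for Slc25a15 (9.25) and Slc25a35 (7.88), replicate 3 highest for Slc25a20 (10.00), and replicate 1 lowest for Slc25a31 (4.39). The cause was not tested. No member was called for the interaction with all arrays.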

How the results depend on the processing

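The count of SLC25 members called depended on single arrays and on the sex-linked covariate. Leaving out 1 array at a time gave 0 to 13 members in VHL-KO/AKI against AKI (1 with all arrays), 15 to 26 in AKI against control (19), 1 to 11 in VHL-KO/AKI against VHL-KO (6), 0 to 2 in VHL-KO against control (1) and 0 to 5 for the interaction (0). The shares of all genes called moved too, from 1.15% to 12%, 21.3% to 34.2%, 8.44% to 19.6%, 0.171% to 1.18% and 0% to 3.11%. Array weights gave 16, 26, 12, 2 and 6 in that order of comparisons, beside 14.4%, 34.7%, 21.7%, 1.6% and 4.44% of all genes. Without control replicate 3 and AKI replicate 4 together, VHL-KO/AKI against AKI had 12 (11% of all genes) and VHL-KO/AKI against VHL-KO 11 (18.7%). In VHL-KO/AKI against AKI the filter on dim genes gave 3 (8.12% of genes), and a fit of the compared groups alone gave 0 (1.12%). In the latter, 9 members had an unadjusted p under 0.05, and the share of all genes there was not counted. Cyclic loess left 3 in VHL-KO/AKI against VHL-KO (13%). With the sex-linked covariate, limma called 0 in AKI against control, in VHL-KO/AKI against VHL-KO and in VHL-KO against control. The shares of all genes called were 0%, 0% and 0.0903%. At an unadjusted p under 0.05 there were 0, 0 and 2 members, and shares of all genes were not counted. None of the 19 AKI against control differences turned, and Slc25a24 stood at 3.11 (SE 1.52) and Slc25a11 at -0.97 (SE 0.94). In VHL-KO/AKI against VHL-KO it turned the direction of Slc25a23 (0.040), Slc25a28 (0.27) and Slc25a35 (0.089), which did not pass there.

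With the replicate number as a block the counts were 1, 20, 2, 1 and 0 in the same order, beside 3.56%, 22.7%, 9.64%, 0.326% and 0.00502% of all genes. Whether the numbers pair samples cannot be settled from so few arrays. Correlations of same-numbered arrays, after removing group means, ran from -0.38 to 0.17 in VHL-KO/AKI with AKI. They ran from -0.067 to 0.067 in AKI with control and from -0.23 to 0.011 in VHL-KO with control. In VHL-KO/AKI with VHL-KO they ran from 0.028 to 0.20, and each of 3 arrays correlated best with its own number. The interaction could not be fitted with compared groups alone.

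With 3 to 5 mice per group, small differences of the 10 dim members would be hard to see. Injury, water withdrawal and sex, and doxycycline and Vhl deletion, cannot be told apart in these groups.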
